A study of Mus musculus with 11 samples.

Results

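The collagen genes are the 44 genes of the count table whose mouse symbol is Col followed by a number, the letter a and a number, out of 27179 Entrez gene identifiers. Of the 44, 6 encode the chains of collagen IV, the sheet-forming collagen of basement membranes. Another 11 encode fibrillar collagens (types I, II, III, V, XI, XXIV and XXVII), and 27 encode the other types. All but Col22a1, which had 8 counts over all libraries, were among the 17370 genes that passed the expression filter, so 43 were tested.

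Collagens are proteins of 3 chains wound into a triple helix, and each chain is the product of its own gene. Fibrillar collagens build the ropes of the connective tissue and are known as products of fibroblasts, whereas collagen IV forms the network of the basement membrane that underlies epithelia. Its chains assemble in set combinations, in which Col4a1 pairs with Col4a2, and Col4a5 with either Col4a6 or Col4a3 and Col4a4, and the genes of each pair lie head to head on the chromosome. In the mammary gland, basal cells touch the basement membrane and luminal cells face the lumen, while terminal end buds (TEBs) are the bulbous tips that drive the ducts into the fat pad in puberty.

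The libraries are bulk RNA-seq of cells sorted from mammary glands of 5-week-old female C57BL/6 mice, all of which carried the E-cadherin-GFP knock-in reporter, with no treatment. TEBs and ducts were dissected under the fluorescence of the reporter, and lineage-negative CD29+CD24+ cells were sorted into luminal cells with high and basal cells with low reporter signal. The 4 groups are basal duct (3 libraries), basal TEB (3), luminal duct (replicates 1 and 3) and luminal TEB (3), and a further luminal duct library had too few cells and was dropped by the authors. At least 2 mice were pooled for each library, so that p-values below measure the spread between these pools. In bulk RNA fewer cells of a type and less RNA per cell cannot be told apart.

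Totals ranged from 27989137 to 49221436 counts per library. The summed level of 5 basal markers (Krt5, Krt14, Trp63, Acta2, Myh11) was 4851 to 16820 counts per 1000000 library counts (CPM, after TMM scaling) in basal and 10.33 to 189.7 CPM in luminal libraries. That of 6 luminal markers (Krt8, Krt18, Epcam, Prlr, Esr1, Elf5) was 9405 to 14290 CPM in luminal and 420.8 to 654.6 CPM in basal libraries, so all 11 libraries had the markers of their label. Mitochondrial genes took 37.5% of the counts of basal TEB replicate 1, 28.5% of luminal duct replicate 3 and 17.8% of basal TEB replicate 3, against 4.34% to 10.9% in the other libraries. Luminal duct replicate 3 also held more RNA of other cell types than luminal duct replicate 1, with sums of 66.7 against 5.65 CPM for 10 fibroblast markers, 176.2 against 12.8 CPM for 6 immune markers, 27.5 against 1.02 CPM for 6 endothelial markers and 75.1 against 0 CPM for 5 adipocyte markers. In basal duct replicate 2 the endothelial (208 CPM) and adipocyte (186.8 CPM) sums were far above the 4.005 to 41.8 and 2.14 to 24.04 CPM of the other basal libraries.

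Collagen transcripts took a far larger share of the basal than of the luminal libraries. Collagen genes took 1.37% to 2.59% of all counts in the 6 basal libraries and 0.0687% to 0.105% in the 5 luminal libraries, with no overlap. The share was 1.88% ± 0.46 (SD, n = 3) in basal duct and 1.96% ± 0.56 (n = 3) in basal TEB, a difference smaller than the spread between replicates. It was 0.0687% in luminal duct replicate 1, 0.0987% in luminal duct replicate 3 and 0.0937% ± 0.0128 (n = 3) in luminal TEB. Of the counts outside mitochondrial genes it was 0.0751% and 0.138% in luminal duct replicates 1 and 3, below and above the 0.0836% to 0.111% of luminal TEB. In basal cells that share was 2.04% ± 0.47 (n = 3) in ducts and 2.43% ± 0.27 (n = 3) in TEBs. The libraries overlapped, at 1.54% to 2.46% in basal duct and 2.17% to 2.71% in basal TEB. The 10 fibroblast markers also summed higher in basal (356.3 to 534.5 CPM) than in luminal libraries (2.80 to 66.7 CPM). The part of other cell types in the collagen share was not tested. Levels of different genes were compared as FPKM, the CPM divided by the gene length in kilobases. Counted that way, collagen IV made up 39.0% to 51.3% of the collagen transcripts of the basal libraries, the fibrillar class 3.92% to 7.01%, and the other types 43.9% to 54.0%.

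**Figure D1:**
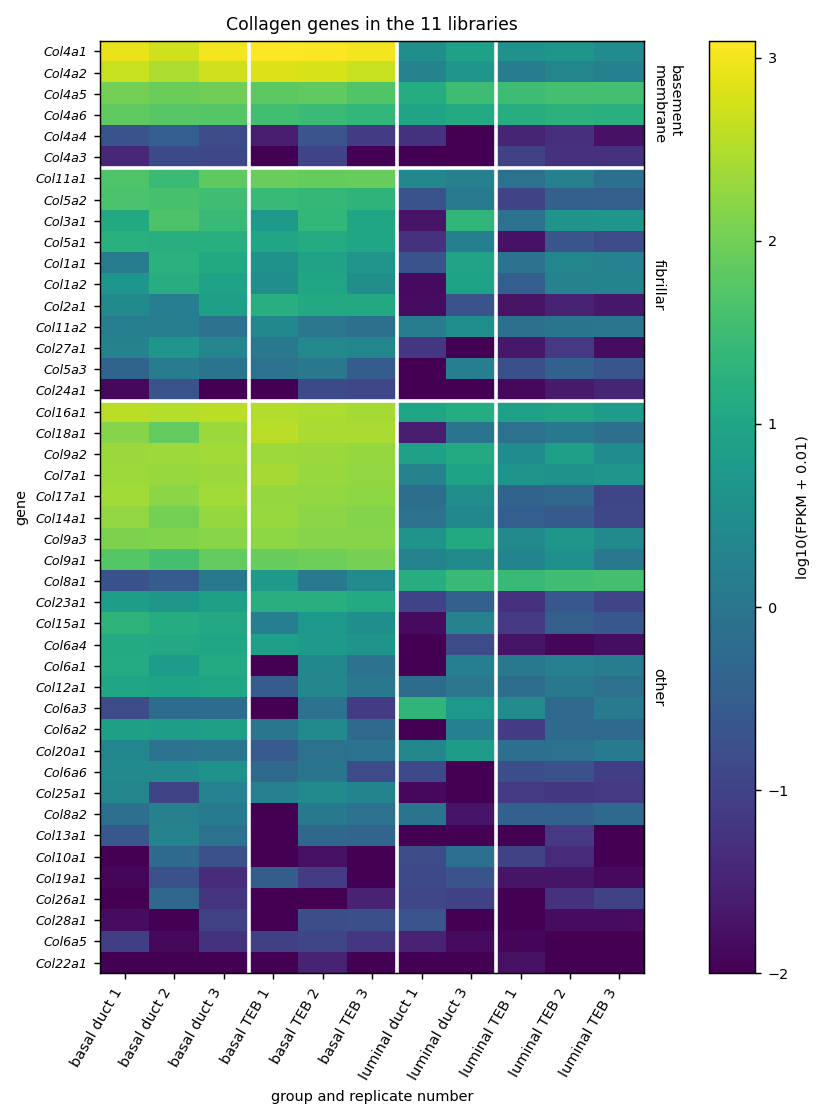
Level of each of the 44 collagen genes in each of the 11 libraries, as log10(FPKM + 0.01), in the order of the mean level within the basement membrane, fibrillar and other classes; white lines part the groups and classes. Most rows are brighter in the 6 basal libraries, Col8a1 is brighter in luminal ones and Col6a3 is brightest in luminal duct. Luminal duct replicates 1 and 3 differ in Col1a1, Col1a2 and Col3a1.

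Between basal and luminal cells, 23 collagen genes were higher and 2 lower in basal cells of ducts, and 20 were higher and 1 lower in basal cells of TEBs, at an FDR below 0.05 in edgeR (quasi-likelihood F test, Benjamini-Hochberg over all genes tested). Of all genes tested, 22.3% were called in ducts (12.6% higher, 9.71% lower) and 25.1% in TEBs (13.2% higher, 11.8% lower). The 20 genes called higher in TEBs were all among the 23 of ducts, and the other 3 were Col4a5, Col6a6 and Col12a1. The median log2 fold change of the 43 members was 4.15 in ducts and 3.99 in TEBs, against 0.08 and 0.04 for all genes. With the 3 genes that had no count in luminal duct set to the bound that 3 counts per library allow, the median in ducts was 3.85. By class, 4 of 6 collagen IV genes, 5 of 11 fibrillar and 14 of 26 other genes were called higher in basal cells of ducts, and 3, 5 and 12 in those of TEBs. Both comparisons were made in 1 model, and the number called lay between 21 and 31 in ducts and between 19 and 25 in TEBs under all alternatives tried. The share of all genes called was not counted under those alternatives.

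Col4a1 and Col4a2, which encode the chains found in nearly every basement membrane, were the most abundant collagen transcripts of basal cells by group means of FPKM, although Col16a1 (330.2 FPKM) was above Col4a2 (296.4 FPKM) in basal duct replicate 2. Col4a1 was at 5455, 3469 and 6583 CPM in basal duct and at 8210, 7836 and 6578 CPM in basal TEB, but at 21.8 and 54.0 CPM in luminal duct replicates 1 and 3 and at 24.9, 32.4 and 18.7 CPM in luminal TEB. Col4a2 followed it, at 2980, 1905 and 3345 CPM in basal duct, 4220, 3910 and 2968 CPM in basal TEB, 12.3 and 32.4 CPM in luminal duct replicates 1 and 3, and 9.19, 13.7 and 10.8 CPM in luminal TEB. Every basal library was above every luminal library for both genes, and within luminal duct replicate 3 was the higher in both. The log2 fold change of basal over luminal cells was 7.09 (SE 0.57, FDR 6.15e-06) in ducts and 8.22 (SE 0.50, FDR 4.88e-07) in TEBs for Col4a1, and 6.94 (SE 0.54, FDR 5.27e-06) and 8.36 (SE 0.48, FDR 3.76e-07) for Col4a2. The ratio of Col4a1 to Col4a2 in FPKM stayed between 1.62 and 2.63 in all 11 libraries.

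Col4a5 and Col4a6, the pair of chains deposited beside the first pair in some basement membranes, had a smaller contrast between the cell types. Col4a5 was at 690.3, 570.8 and 635.1 CPM in basal duct, 426.4, 457 and 328.3 CPM in basal TEB, 94.3 and 211.8 CPM in luminal duct replicates 1 and 3, and 215.9, 256.9 and 247.6 CPM in luminal TEB. Col4a6 was at 473.9, 393.7 and 370.7 CPM in basal duct, 233.5, 194.7 and 156.2 CPM in basal TEB, 61.6 and 86.1 CPM in luminal duct replicates 1 and 3, and 97.2, 124.6 and 114 CPM in luminal TEB. The groups stood in the order basal duct, basal TEB, luminal TEB, luminal duct for both genes, and no library of a group overlapped the next. In ducts, Col4a5 was higher in basal cells by 2.05 (SE 0.31, FDR 0.000534) and Col4a6 by 2.48 (SE 0.25, FDR 2.53e-05) on the log2 scale. In TEBs the difference was 0.80 (SE 0.20, FDR 0.0119) for Col4a6 and 0.75 (SE 0.26, FDR 0.0541) for Col4a5, which missed the threshold and passed it under 10 of 24 alternatives. The Col4a6 difference in TEBs lost its call with library totals in place of TMM scaling, which moves the median of all genes, and without luminal TEB replicate 1 (0.70, FDR 0.0622).

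The 2 pairs took different shares of collagen IV in the cell types. Col4a5 and Col4a6 were 9.19% to 15.2% of collagen IV FPKM in basal duct and 4.83% to 5.26% in basal TEB, but 81.9% in luminal duct replicate 1, 77.5% in luminal duct replicate 3 and 89.1% to 92.4% in luminal TEB. The ratio of Col4a5 to Col4a1 was 0.0981 to 0.167 in basal duct, 0.0508 to 0.0593 in basal TEB, 4.40 and 3.99 in luminal duct replicates 1 and 3, and 8.08 to 13.5 in luminal TEB. In both cell types the share of Col4a5 and Col4a6 did not overlap between TEB and duct, and it was lower in TEBs of basal and higher in TEBs of luminal cells. Col4a3 and Col4a4, the chains known from the glomerular basement membrane, were scarce throughout. Col4a3 was at 0.239, 1.13 and 1.03 CPM in basal duct, 0, 0.821 and 0 in basal TEB, 0 in both luminal duct replicates and 0.74, 0.40 and 0.366 CPM in luminal TEB. Col4a4 was at 1.58, 2.53 and 1.05 CPM in basal duct, 0.115, 1.62 and 0.56 CPM in basal TEB, 0.364 and 0 CPM in luminal duct replicates 1 and 3 and 0.179, 0.305 and 0.0578 CPM in luminal TEB. Neither gene passed the test in any comparison, and a count of 0 allows up to 0.0683 CPM in luminal duct replicate 1 and 0.123 CPM in replicate 3 (3 counts, counting error only).

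**Figure D2:**
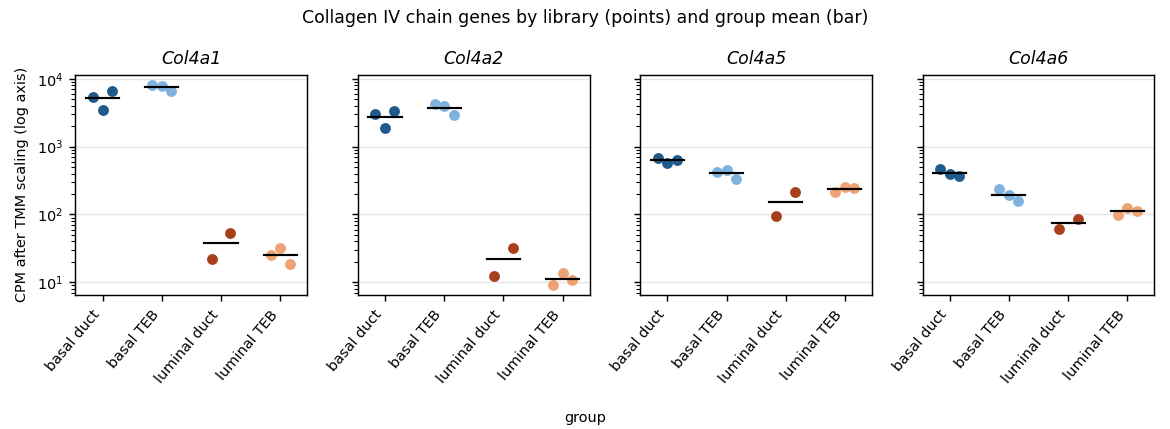
CPM of Col4a1, Col4a2, Col4a5 and Col4a6 on a log axis, with a point for each library and a bar for the mean of each group. Col4a1 and Col4a2 lie at 1905 CPM or more in all basal and at 54 CPM or less in all luminal libraries, whereas Col4a6 lies at 156.2 CPM or more in basal and at 124.6 CPM or less in luminal libraries.

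The 4 main collagen IV genes lie in 2 head-to-head pairs. In the mm10 build (GRCm38) the annotation places Col4a1 at chr8:11198423-11312889 on the minus and Col4a2 at chr8:11312805-11449287 on the plus strand, so that their widest annotated spans overlap. Col4a6 lies at chrX:141165403-141474095 on the minus and Col4a5 at chrX:141475370-141689236 on the plus strand, and the starts used here are 1342 bases apart. The bases before the transcript starts listed by RefSeq for Col4a5 and Col4a6 are shown because these genes shared the order of the 4 groups, and those of Col8a1 because it had the opposite contrast between the cell types. All are RefSeq sequence (GRCm38.p6), 5′ to 3′ on the strand of the gene, from chrX:141475169-141475399 (plus), chrX:141474077-141474326 (minus) and chr16:57754738-57754987 (minus). The last 30 bases printed for Col4a5 and the last 19 for Col4a6 lie inside the widest annotated span of the gene. Capitals mark matches on either strand to the GC box core GGGCGG and to the CCAAT box.
Col4a5: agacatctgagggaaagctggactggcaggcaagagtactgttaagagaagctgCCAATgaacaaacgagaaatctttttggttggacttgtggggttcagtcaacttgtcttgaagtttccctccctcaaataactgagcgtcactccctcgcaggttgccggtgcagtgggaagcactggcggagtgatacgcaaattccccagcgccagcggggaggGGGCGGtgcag
Col4a6: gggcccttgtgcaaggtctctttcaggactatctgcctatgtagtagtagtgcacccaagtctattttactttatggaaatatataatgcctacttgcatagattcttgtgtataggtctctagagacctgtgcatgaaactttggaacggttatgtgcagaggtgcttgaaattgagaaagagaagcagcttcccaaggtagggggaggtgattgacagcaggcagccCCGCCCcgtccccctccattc
Col8a1: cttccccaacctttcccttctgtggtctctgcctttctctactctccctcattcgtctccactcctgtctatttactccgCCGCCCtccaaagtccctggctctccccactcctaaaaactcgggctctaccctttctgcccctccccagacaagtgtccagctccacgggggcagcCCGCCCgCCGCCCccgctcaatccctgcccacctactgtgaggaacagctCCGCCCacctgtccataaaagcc

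Windows of 250 bases before the start were found for 35 of the 44 genes (38 windows). The GC box core was in 57.9% of these and in 32.7% of the 32851 windows of all genes, and CCAAT in 34.2% against 33.8%. Searched for as well on both strands were TATAAA (13.2% against 12.4%), the AP-1 site TGANTCA (2.63% against 6.75%) and the TEAD core GGAATG (10.5% against 12.6%). Col8a1 held 4 matches to the GC box core, Col4a5 and Col4a6 held 1 each, and none of the 5 motifs was in the window of Col6a3. These matches describe the letters of the windows, and no binding was measured here.

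In the fibrillar class, Col5a1, Col5a2 and Col11a1, chains of the minor collagens V and XI known to nucleate fibrils, and Col2a1 and Col27a1 were called higher in basal cells, Col5a3 and Col11a2 were not, and the genes of collagens I and III, the bulk collagens of connective tissue, did not pass the test with all libraries. Col5a1 was at 140.8, 134.3 and 138 CPM in basal duct and 86.4, 113.8 and 82.1 CPM in basal TEB, against 0.364 and 13.1 CPM in luminal duct replicates 1 and 3 and 0.0673, 1.77 and 1.14 CPM in luminal TEB. Col5a2 was at 292.5, 264.5 and 225.3 CPM in basal duct and 182.9, 164.4 and 135.5 CPM in basal TEB, against 1.30 and 8.10 CPM in luminal duct replicates 1 and 3 and 0.673, 2.34 and 2.25 CPM in luminal TEB. Neither gene overlapped between basal and luminal libraries, and in both luminal duct replicate 3 was the highest luminal library. The log2 fold changes in ducts and TEBs were 4.38 (SE 1.18, FDR 0.0188) and 6.55 (SE 1.10, FDR 0.000874) for Col5a1, and 5.83 (SE 0.76, FDR 0.000166) and 6.51 (SE 0.65, FDR 1.66e-05) for Col5a2. The value of Col5a1 in ducts was 8.55 with luminal duct replicate 1 alone and 3.39 with replicate 3 alone, and its call was lost with only the groups compared (FDR 0.051). Col5a3, the third gene of collagen V, was at 2.554, 8.393 and 5.413 CPM in basal duct, 4.906, 6.59 and 1.82 CPM in basal TEB, 0 and 9.541 CPM in luminal duct replicates 1 and 3 and 1.009, 2.286 and 1.368 CPM in luminal TEB.

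Collagens II, IX and XI are known as the collagens of cartilage, and most of their genes were basal in these libraries. Col11a1 was at 353.6, 218.8 and 494.6 CPM in basal duct and 623.2, 567.3 and 596.8 CPM in basal TEB. It was at 17.5 and 11.9 CPM in luminal duct replicates 1 and 3 and 5.65, 12.4 and 5.20 CPM in luminal TEB, and basal cells were higher by 4.59 (SE 0.48, FDR 3.48e-05) in ducts and 6.26 (SE 0.44, FDR 1.05e-06) in TEBs on the log2 scale. All basal TEB libraries lay above all basal duct libraries for this gene, but the difference of 0.74 (SE 0.35, FDR 0.3545) was not called by edgeR. Col2a1, the main chain of cartilage fibrils, was at 13.3, 7.81 and 41.2 CPM in basal duct and 79.9, 63.3 and 63.8 CPM in basal TEB, against 0.0228 and 0.987 CPM in luminal duct replicates 1 and 3 and 0.0448, 0.114 and 0.0578 CPM in luminal TEB. Basal TEB was above basal duct without overlap, by 1.73 on the log2 scale (SE 0.74, FDR 0.311), which did not pass the test in edgeR but did in limma voom (2.06, FDR 0.0118). The difference between basal and luminal cells was 5.5 (SE 1.10, FDR 0.00329) in ducts and was called in TEBs as well (FDR 4.36e-05), where the luminal libraries held 2, 6 and 3 counts, so that no fold is given. In ducts the value of Col2a1 rests on 1 and 24 counts in luminal duct replicates 1 and 3, was 4.39 with replicate 3 alone, and lost its call with only the groups compared (FDR 0.0522). Col11a2, another chain of collagen XI, was not called, at 8.639, 8.262 and 4.412 CPM in basal duct, 13.16, 5.79 and 4.173 CPM in basal TEB, 8.103 and 19.04 CPM in luminal duct replicates 1 and 3 and 4.147, 5.277 and 5.567 CPM in luminal TEB.

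The 3 genes of collagen IX, which coats cartilage fibrils, moved with Col11a1 between the cell types. Col9a1 was at 218.7, 154.5 and 285 CPM in basal duct, 318, 363.5 and 428.6 CPM in basal TEB, 7.26 and 9.95 CPM in luminal duct replicates 1 and 3 and 7.53, 13.7 and 4.24 CPM in luminal TEB. Col9a2 was at 590.3, 599.1 and 658.8 CPM in basal duct, 617.9, 578.3 and 523.7 CPM in basal TEB, 22.4 and 35.3 CPM in luminal duct replicates 1 and 3 and 8.09, 20.2 and 8.11 CPM in luminal TEB. Col9a3 was at 347.3, 391.7 and 435.5 CPM in basal duct, 472.3, 418.9 and 428.9 CPM in basal TEB, 12.2 and 35.3 CPM in luminal duct replicates 1 and 3 and 7.67, 14.4 and 7.73 CPM in luminal TEB. All 3 parted the basal from the luminal libraries, with log2 fold changes of 4.05 to 4.68 in ducts (FDR at most 6.01e-05) and 5.45 to 5.56 in TEBs (FDR at most 2.58e-06). Together with Col2a1, Col11a1 and Col11a2 they made up 13.8% to 17.3% of the collagen FPKM of basal libraries, 17.8% and 15.5% of that of luminal duct replicates 1 and 3 and 6.28% to 12.5% of that of luminal TEB. The summed level of 4 Schwann cell markers, of which Sox10 made up most, was 175.9 to 336.2 CPM in basal and 33.0 to 93.8 CPM in luminal libraries, and the part of these markers in the result was not tested. Col27a1, a fibrillar collagen of cartilage, was at 14.5, 34.1 and 15.5 CPM in basal duct and 8.25, 19.3 and 16.7 CPM in basal TEB, and at 0.433 and 0 CPM in luminal duct replicates 1 and 3 and 0.0897, 0.457 and 0.0385 CPM in luminal TEB, a difference that passed the test in ducts (FDR 0.00498) and TEBs (FDR 0.00151). Col24a1 had 142 counts in all, at 0.01995, 1.395 and 0 CPM in basal duct, 0, 0.9264 and 0.8121 CPM in basal TEB, 0 and 0 CPM in luminal duct replicates 1 and 3 and 0.02242, 0.09526 and 0.1734 CPM in luminal TEB.

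Collagens I and III varied widely between the replicates of a group. Col1a1 was at 6.68, 83.9 and 57.2 CPM in basal duct, 19.5, 41.1 and 20.9 CPM in basal TEB, 0.91 and 43.6 CPM in luminal duct replicates 1 and 3 and 4.01, 10.4 and 8.38 CPM in luminal TEB. Col1a2 was at 24.2, 75.2 and 45.2 CPM in basal duct, 18.01, 50 and 16.8 CPM in basal TEB, 0.0228 and 47.0 CPM in luminal duct replicates 1 and 3 and 1.64, 9.30 and 9.94 CPM in luminal TEB. Col3a1 was at 68.6, 258.5 and 153.5 CPM in basal duct, 32.3, 128.4 and 53.9 CPM in basal TEB, 0.0455 and 123.1 CPM in luminal duct replicates 1 and 3 and 4.39, 24.5 and 25.3 CPM in luminal TEB. Basal duct replicate 2, basal TEB replicate 2 and luminal duct replicate 3 were the highest of their groups in all 3 genes. The same libraries had the highest endothelial and adipocyte marker sums of their groups, at 208, 41.8 and 27.5 CPM and at 186.8, 24.04 and 75.1 CPM, and their part in the levels of collagens I and III was not tested. The 10 fibroblast markers summed to 356.3 to 534.5 CPM in the basal libraries, of which Dcn and Fbln1 were the largest, and to 2.80 to 66.7 CPM in the luminal ones. In basal TEB replicate 1 the 3 collagen genes summed to 69.8 CPM and the fibroblast markers to 411.1 CPM, the highest of basal TEB. Nearly all of that marker sum was Dcn (157 CPM) and Fbln1 (247.6 CPM). Pdgfrb, Lum, Dpt and Clec3b were at 0 and Pdgfra and Mfap5 at 0.0577 CPM there, the lowest of basal TEB. Thy1 (4.27 CPM) and Pi16 (2.19 CPM) were the highest of basal TEB in that library. With replicate 1 of basal TEB and replicate 3 of luminal duct both set aside, Col1a1 (5.75, FDR 0.0188), Col1a2 (FDR 0.00303) and Col3a1 (FDR 0.00195) were called higher in basal cells of ducts, where Col1a2 and Col3a1 had 1 and 2 counts in the remaining luminal library. In that fit Col1a2 (2.25, FDR 0.0431) and Col3a1 (2.33, FDR 0.0353) were called higher in basal cells of TEBs.

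**Figure D3:**
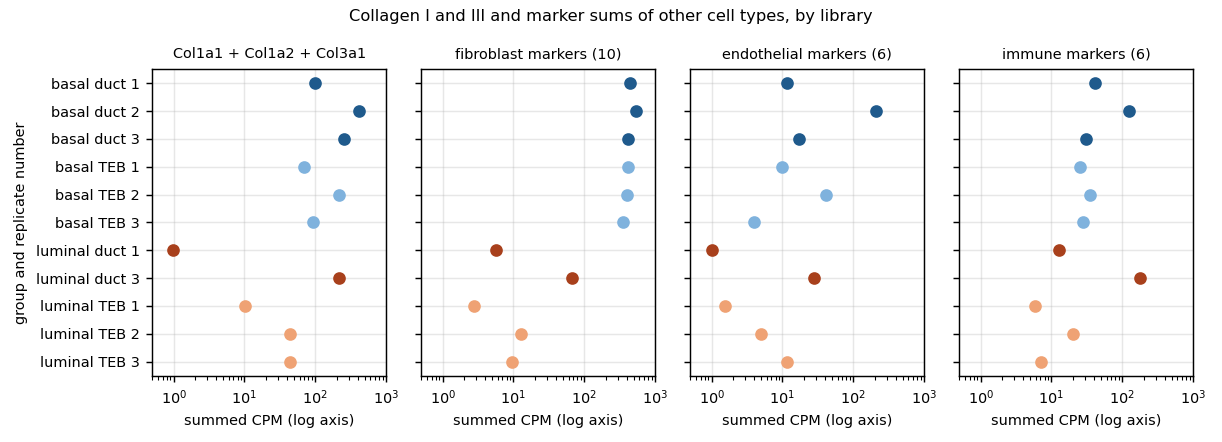
Summed CPM, on a log axis, of Col1a1, Col1a2 and Col3a1 and of the fibroblast, endothelial and immune marker lists in each of the 11 libraries. Luminal duct replicate 1 has the lowest sum of the 3 collagen genes (0.979 CPM) and replicate 3 of the same group has 213.6 CPM, beside fibroblast sums of 5.65 and 66.7 CPM.

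The 2 luminal duct libraries differed in their collagens and are given one by one. Of the 43 tested genes, 30 were higher in replicate 3, 10 were higher in replicate 1 and 3 were at 0 in both. In counts, Col1a1, Col1a2 and Col3a1 had 40, 1 and 2 in replicate 1 and 1059, 1143 and 2994 in replicate 3. The fibrillar class made up 4.27% of the collagen FPKM of replicate 1 and 23.6% of that of replicate 3, against 3.37% to 8.12% in luminal TEB. Collagen IV made up 28.5% and 27.6% in replicates 1 and 3, both below the 43.9% to 47.4% of luminal TEB. Against the range of luminal TEB, 18 of the 43 genes lay below and 15 above in replicate 1, and 9 below and 26 above in replicate 3. Neither these counts nor those between the 2 replicates were made for all genes, so they do not set collagens apart from other genes. Both replicates lay below the TEB range for Col4a5 and Col4a6, and both above it for Col6a3, Col9a2, Col14a1, Col16a1 and Col17a1, among others.

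Among the other collagens of basal cells were those of the anchoring structures below and at the basement membrane. Col7a1, the anchoring fibril collagen, was at 2077, 1883 and 1976 CPM in basal duct, 2392, 1893 and 1737 CPM in basal TEB, 17.7 and 82.3 CPM in luminal duct replicates 1 and 3 and 39.4, 37.6 and 44.4 CPM in luminal TEB. Col17a1, the transmembrane collagen of hemidesmosomes, was at 1324, 892.1 and 1343 CPM in basal duct, 1046, 1020 and 937.7 CPM in basal TEB, 3.78 and 17.4 CPM in luminal duct replicates 1 and 3 and 2.33, 2.55 and 0.578 CPM in luminal TEB. Both were far apart between the cell types, and in both luminal duct replicate 3 was the highest luminal library. Basal cells were higher by 5.31 (SE 0.58, FDR 4.6e-05) in ducts and 5.63 (SE 0.49, FDR 5.59e-06) in TEBs for Col7a1, and by 6.82 (SE 0.79, FDR 7.29e-05) and 9.10 (SE 0.73, FDR 2.97e-06) for Col17a1. Col23a1, another transmembrane collagen, was at 40.5, 27.9 and 44.2 CPM in basal duct, 89.9, 86.5 and 72.0 CPM in basal TEB and at most 1.97 CPM in luminal libraries, and Col25a1 was at 16.2, 0.737 and 13.6 CPM in basal duct, 12.5, 20.8 and 15.1 CPM in basal TEB and 0.419 to 0.471 CPM in luminal TEB. Col25a1 had 1 and 0 counts in luminal duct replicates 1 and 3, so no fold is given there. Both were called higher in basal cells of ducts and of TEBs.

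Col18a1 and Col15a1 are the multiplexins, collagens with heparan or chondroitin sulfate chains at basement membranes. Col18a1 was at 847.8, 426 and 1257 CPM in basal duct, 2101, 1630 and 1594 CPM in basal TEB, 0.091 and 5.22 CPM in luminal duct replicates 1 and 3 and 4.51, 6.54 and 4.28 CPM in luminal TEB. All basal TEB libraries were above all basal duct libraries, but the difference of 1.07 on the log2 scale (SE 0.72, FDR 0.534) was not called by edgeR, while limma voom called it (1.17, FDR 0.0337). Col15a1 lay the other way, at 109.1, 75.0 and 62.6 CPM in basal duct, 8.20, 27.1 and 18.4 CPM in basal TEB, 0.0228 and 9.42 CPM in luminal duct replicates 1 and 3 and 0.314, 1.83 and 1.21 CPM in luminal TEB. Its TEB-duct difference in basal cells did not pass the test. Both genes were higher in basal than luminal cells, by 8.38 (SE 1.21, FDR 0.000358) and 8.44 (SE 0.99, FDR 5.76e-05) for Col18a1 in ducts and TEBs and by 4.15 (SE 1.37, FDR 0.048) and 3.99 (SE 1.15, FDR 0.0235) for Col15a1, whose call in ducts was lost in 11 of 24 alternatives. The value of Col18a1 in ducts rests on 4 and 127 counts in luminal duct replicates 1 and 3, and was 13.13 with replicate 1 alone and 7.34 with replicate 3 alone. That of Col15a1 rests on 1 and 229 counts, and was 3.13 with replicate 3 alone. The fits that lost the call of Col15a1 included those without any 1 of basal duct replicates 1 to 3, basal TEB replicates 2 and 3 or luminal TEB replicates 1 to 3 (FDR 0.051 to 0.107). In TEBs the call of Col15a1 was lost without basal TEB replicate 2 (FDR 0.0617) or 3 (0.0507) or luminal TEB replicate 1 (0.0858) or 3 (0.0772).

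Beside collagen IX, the FACIT collagens, which sit on the surface of fibrils, included Col16a1, Col14a1 and Col12a1. Col16a1 was the third most abundant collagen of basal duct in FPKM, at 1917, 1719 and 1904 CPM there and 1677, 1510 and 1325 CPM in basal TEB. In luminal cells it was at 53.0 and 72.6 CPM in duct replicates 1 and 3 and 43.5, 48.1 and 32.3 CPM in luminal TEB. Its log2 fold change of basal over luminal cells was 4.88 (SE 0.30, FDR 1.14e-06) in ducts and 5.19 (SE 0.25, FDR 1.5e-07) in TEBs. Col14a1 was at 1191, 696.8 and 1265 CPM in basal duct and 1301, 1040 and 899.3 CPM in basal TEB, while Col12a1 was at 117.4, 105.7 and 117.5 CPM in basal duct and 3.41, 26.5 and 12.8 CPM in basal TEB. Their luminal values and tests are given with the comparison of TEBs and ducts.

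Col8a1 and Col6a3 were the 2 collagens called lower in basal cells, Col8a1 in ducts and TEBs and Col6a3 in ducts only. Of the 43 genes tested, 7 had a fold change below 0 in each of the 2 comparisons. Among those not called, Col20a1 was lower in every basal duct library than in both luminal duct libraries. Col8a1, a short-chain network collagen, was at 0.938, 1.47 and 5.70 CPM in basal duct and 27.8, 6.55 and 14.5 CPM in basal TEB, against 75.4 and 140.2 CPM in luminal duct replicates 1 and 3 and 139, 175.5 and 201.7 CPM in luminal TEB. Every luminal library was above every basal library, and basal cells were lower by 5.32 (log2 fold change -5.32, SE 0.74, FDR 0.000275) in ducts and by 3.41 (-3.41, SE 0.65, FDR 0.00208) in TEBs. By group means of FPKM it was second to Col4a5 in luminal duct and luminal TEB, although Col6a3 led in luminal duct replicate 1 and Col8a1 itself in luminal TEB replicate 3. It made up 12.9% to 29.2% of the collagen FPKM of luminal libraries and 0.136% or less of those of basal ones. Col6a3, a chain of the beaded filaments of collagen VI, was at 231 and 55.3 CPM in luminal duct replicates 1 and 3 and 31.1, 5.93 and 13.2 CPM in luminal TEB. In basal cells it was at 1.496, 6.788 and 6.901 CPM in ducts and 0, 8.78 and 0.756 CPM in TEBs. Replicate 1 of luminal duct, which had little collagen I or III, had the most Col6a3, 10150 counts against 1345 in replicate 3. Basal cells of ducts were lower in Col6a3 by 4.83 (log2 fold change -4.83, SE 1.32, FDR 0.0207). The call was lost without basal duct replicate 1 (FDR 0.0764), 2 (0.0522) or 3 (0.0576) and without luminal duct replicate 1 (-3.45, FDR 0.148), and in TEBs the groups overlapped.

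Col6a3 parted company with its partner chains. Col6a1 and Col6a2, which form the collagen VI monomer with it, were at 24.9 to 54.1 and 25.02 to 29.23 CPM in basal duct, 0 to 9.26 and 1.99 to 10.2 CPM in basal TEB, 4.60 to 6.44 and 0.269 to 2.06 CPM in luminal TEB, and 0 in luminal duct replicate 1 against 6.169 and 6.498 CPM in replicate 3. The ratio of Col6a3 to Col6a1 in FPKM was 0.0102 to 0.10 in basal duct, 0.348 and 0.0799 in basal TEB replicates 2 and 3, 0.338 to 2.48 in luminal TEB and 3.29 in luminal duct replicate 3, so that basal TEB overlapped with luminal TEB. Col6a4, a related chain, was basal, at 94.9, 89.8 and 73.6 CPM in basal duct, 56.0, 42.5 and 31.8 CPM in basal TEB, 0 and 1.07 CPM in luminal duct replicates 1 and 3 and at most 0.0673 CPM in luminal TEB. Basal cells were higher by 7.51 (SE 1.03, FDR 0.000252) in ducts, and the call in TEBs (FDR 1.86e-05) is given with no fold because the luminal libraries held 3, 1 and 2 counts. The value in ducts also rests on few counts, 0 and 26 in luminal duct replicates 1 and 3, and was 6.33 with replicate 3 alone. Col6a6 was at 19.1, 20.3 and 28.8 CPM in basal duct, 4.21, 7.07 and 1.04 CPM in basal TEB and at most 1.32 CPM in luminal libraries, and was called higher in basal cells of ducts (5.54, SE 1.40, FDR 0.0137). That value rests on 41 and 0 counts in luminal duct replicates 1 and 3, and was 4.6 with replicate 1 alone.

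**Figure D4:**
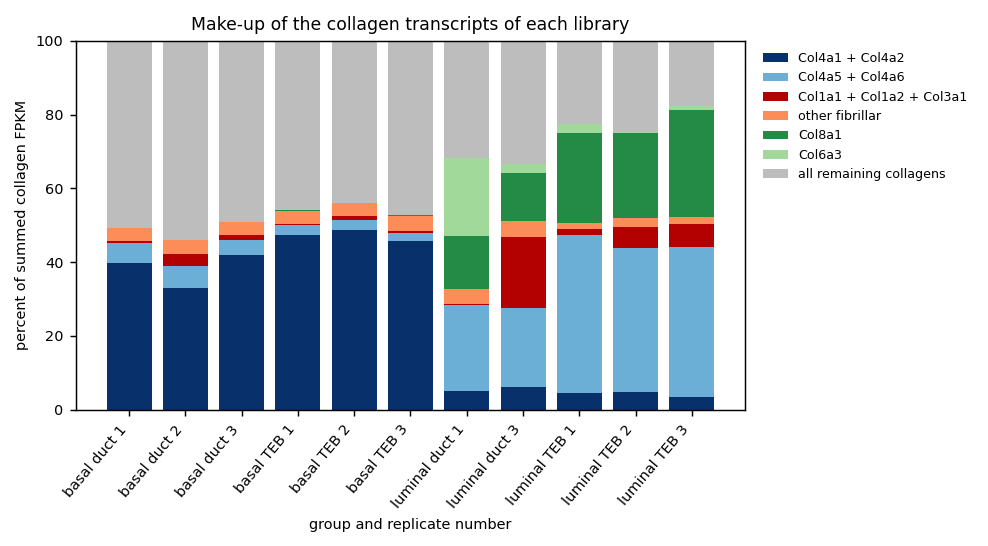
Make-up of the collagen transcripts of each library, as percent of the summed FPKM of the 44 genes, stacked by gene set. Col4a1 and Col4a2 fill 33.1% to 48.6% of each basal bar, Col4a5, Col4a6 and Col8a1 dominate the luminal TEB bars, and luminal duct replicates 1 and 3 differ in Col6a3 (20.9% and 2.40%) and in collagens I and III (0.202% and 19.1%).

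Between TEBs and ducts few collagen genes passed the test. In basal cells, no collagen gene was higher and 2 were lower in TEBs, where 1.32% of all genes were called (0.167% higher, 1.16% lower), and in luminal cells no gene was higher and 1 was lower, where 1.41% were called (0.639% higher, 0.771% lower). The median log2 fold change of the 43 genes was -0.53 in basal and -1.14 in luminal cells, against -0.03 and 0.04 for all genes. In basal cells 26 of the 43 genes had a fold change below 0, and in luminal cells 32, against 52.1% and 46% of all genes. The values for luminal cells rest on 2 libraries that differ as described. In basal cells, 6 collagen genes had TEB libraries all above and 11 all below the duct libraries, while 8.88% and 11.9% of all genes did so.

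Col4a6 and Col12a1 were lower in TEBs in basal cells. For Col4a6 the values given above did not overlap, and the log2 fold change was -1.08 (SE 0.20, FDR 0.0261), a 2.12-fold difference. Col4a5, its neighbour, had a change of -0.65 (SE 0.26, FDR 0.287), again without overlap of the libraries, while Col4a1 and Col4a2 lay at 0.54 (SE 0.36, FDR 0.529) and 0.43 (SE 0.35, FDR 0.62). Col12a1, a FACIT collagen known from tissues under tension, was between 105.7 and 117.5 CPM in basal duct and between 3.41 and 26.5 CPM in basal TEB, with a change of -2.99 (SE 0.55, FDR 0.0249), a 7.92-fold difference. In luminal cells, Col12a1 was at 7.28 and 11.9 CPM in duct replicates 1 and 3 and 8.05, 13.5 and 9.19 CPM in TEBs, so that basal cells were higher in ducts (3.57, SE 0.67, FDR 0.00232) and overlapped with luminal cells in TEBs. Both calls in basal cells were lost with library totals in place of TMM scaling and without basal duct replicate 1 (FDR 0.0902 for each), basal duct replicate 2 (0.0721 and 0.0734) or basal TEB replicate 3 (0.135 and 0.151), while the sizes stayed between -1.26 and -0.95 for Col4a6 and between -3.83 and -2.52 for Col12a1.

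Col8a1 was higher in basal TEB than in basal duct in every library, by 2.59 on the log2 scale (SE 0.65, FDR 0.0896), which missed the threshold. It passed under 5 of 24 alternatives, among them leaving out basal duct replicate 3 (3.75, FDR 0.0137) or basal TEB replicate 2 (2.91, FDR 0.0437). The levels were low, between 0.938 and 27.8 CPM in basal cells.

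Col14a1 was the collagen gene called between TEBs and ducts in luminal cells. It was at 5.17 CPM in luminal duct replicate 1, 15.3 CPM in replicate 3 and 2.09, 1.72 and 0.732 CPM in luminal TEB, with a log2 fold change of -2.75 (SE 0.49, FDR 0.0219). The call was lost in 10 of 24 alternatives, among them limma voom (FDR 0.352), library totals (0.0861) and only the groups compared (0.0836). It was also lost without luminal duct replicate 3 (-1.78, FDR 0.118) and without luminal TEB replicate 1 (FDR 0.0531), 2 (0.0702) or 3 (0.0834). In basal cells Col14a1 was far more abundant, and its difference from luminal cells was 6.69 (SE 0.63, FDR 1.69e-05) in ducts and 9.48 (SE 0.60, FDR 5.55e-07) in TEBs on the log2 scale. The sum of the basal markers moved with it, at 69.4 and 189.7 CPM in luminal duct replicates 1 and 3 and 10.3 to 21.3 CPM in luminal TEB. Krt5, Krt14, Acta2 and Myh11 were each higher in replicate 3 than in replicate 1. Trp63 was lower there, at 3.44 and 0.206 CPM in replicates 1 and 3, against 0.583, 1.70 and 0.809 CPM in luminal TEB. The part of basal markers in the level of Col14a1 was not tested. Col17a1 and Col9a2, which are basal genes as well, had changes of -2.53 (SE 0.60, FDR 0.0634) and -1.24 (SE 0.35, FDR 0.107) in luminal cells, with no overlap of the libraries, and Col9a2 passed without luminal TEB replicate 2 (-1.84, FDR 0.0143).

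With 1 luminal duct library at a time, the comparison in luminal cells gave different genes. Such a fit assumes that the lone library varies like those of the other groups. With replicate 3 alone, 12 collagen genes were called: Col2a1, Col5a1, Col5a2, Col4a2, Col6a4, Col7a1, Col9a2, Col9a3, Col14a1, Col15a1 and Col17a1 were lower in TEBs and Col6a6 was higher, where 2.92% of all genes were called lower and 4.06% higher. With replicate 1 alone, 2 were called, and both were higher in TEBs: Col4a5 (1.35, SE 0.25, FDR 0.0369) and Col18a1, which had 4 counts in that library, where 0.391% of all genes were called higher and 0.541% lower. No gene was called with each of the 2 libraries. For Col4a1 the direction turned, from -0.58 (SE 0.40, FDR 0.487) with both libraries to 0.21 (FDR 0.924) with replicate 1 alone, and none of these values passed the test. For Col4a5 and Col4a6 the values with both libraries were 0.65 (SE 0.29, FDR 0.298) and 0.60 (SE 0.23, FDR 0.215), and with replicate 3 alone 0.18 and 0.38. Col17a1 was at -1.06 and Col6a6 at 0.14 with replicate 1 alone. Col6a6 had 0 counts in luminal duct replicate 3, against 53, 69 and 30 in luminal TEB, so its value with replicate 3 alone gives no fold.

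**Figure D5:**
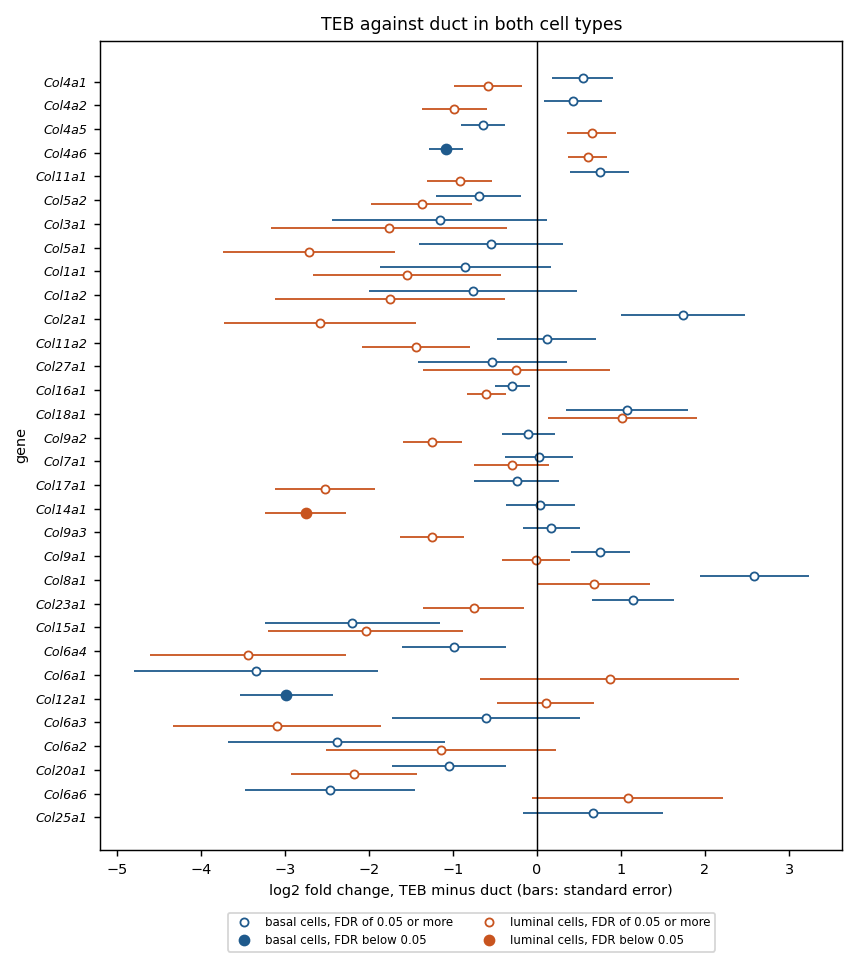
Log2 fold change of TEB over duct in basal (blue) and luminal (orange) cells for the 32 collagen genes with a group mean of at least 10 CPM, with the standard error as bar; filled points have an FDR below 0.05. Col4a6 and Col12a1 in basal and Col14a1 in luminal cells are the filled points, and no luminal value is drawn for Col25a1, which had 1 and 0 counts in luminal duct.

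The TEB-duct difference itself differed between the cell types for Col4a6, by -1.68 on the log2 scale (SE 0.31, FDR 0.0383) in the test of the interaction, in which 0.443% of all genes were called (0.0806% above 0, 0.363% below). It was lower in TEBs than in ducts in all basal libraries and higher in all luminal libraries. The value stayed between -2.28 and -1.46 in the 23 alternatives run, but its FDR was between 0.0545 and 0.114 without any 1 of basal duct replicates 1 to 3, basal TEB replicate 3 or luminal TEB replicates 1 to 3. Col4a5 had -1.30 (SE 0.39, FDR 0.178), which passed without luminal duct replicate 3 (-1.99, FDR 0.0257) and was -0.83 without luminal duct replicate 1. Col14a1 and Col12a1, the genes called in 1 cell type each, had 2.79 (SE 0.63, FDR 0.0858) and -3.09 (SE 0.81, FDR 0.132), so that a difference between the cell types was not called for them. It was called for Col14a1 without luminal duct replicate 1 (3.39, FDR 0.0113) and for Col12a1 without basal TEB replicate 2 (-3.91, FDR 0.0253).

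When the 2 libraries with the largest mitochondrial share (replicate 1 of basal TEB and replicate 3 of luminal duct) were set aside, 4 collagen genes were called in basal cells, where 1.73% of all genes were called. These were Col4a6 (-1.23, FDR 0.0163) and Col12a1 (-2.52, FDR 0.0093) and, beside them, Col6a1 (-2.77, FDR 0.0295) and Col6a4 (-1.2, FDR 0.0326), all lower in TEBs. The interaction then called 4 genes, Col4a5 (-2.04, FDR 0.0235), Col4a6 (-2.1, FDR 0.0191), Col12a1 (-3.03, FDR 0.0398) and Col6a1 (FDR 0.00729), where 1.07% of all genes were called. Between TEBs and ducts in luminal cells the same fit called Col4a5 (1.36, FDR 0.0307), Col7a1 (1.21, FDR 0.0257), Col18a1 (FDR 0.0179) and Col6a1 (FDR 0.0142), all higher in TEBs, where 2% of all genes were called. No fold is given for Col6a1, which had no count in the remaining luminal duct library, or for Col18a1, which had 4.

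The remaining collagens were low, and none of those that follow passed a test. Col20a1, a FACIT collagen, was at 8.899, 3.631 and 4.181 CPM in basal duct, 1.154, 3.242 and 3.641 CPM in basal TEB, 9.127 and 26.98 CPM in luminal duct replicates 1 and 3 and 2.937, 3.429 and 5.567 CPM in luminal TEB. Col19a1, of the same family, was at 0.01995, 1.842 and 0.3591 CPM in basal duct, 3.175, 0.6948 and 0 CPM in basal TEB, 1.297 and 2.056 CPM in luminal duct replicates 1 and 3 and 0.08967, 0.09526 and 0.03853 CPM in luminal TEB. Both were higher in luminal duct replicate 3 than in replicate 1. Col13a1, a transmembrane collagen, was at 0.6584, 5.552 and 2.386 CPM in basal duct, 0, 1.432 and 1.316 CPM in basal TEB, 0 and 0 CPM in luminal duct replicates 1 and 3 and 0, 0.1715 and 0 CPM in luminal TEB. Col10a1, the collagen of hypertrophic cartilage, was at 0, 1.71 and 0.5387 CPM in basal duct, 0, 0.02105 and 0 CPM in basal TEB, 0.4552 and 2.262 CPM in luminal duct replicates 1 and 3 and 0.269, 0.09526 and 0 CPM in luminal TEB. Both were highest in basal duct replicate 2 within the basal libraries. Col26a1 was at 0, 1.395 and 0.1283 CPM in basal duct, 0, 0 and 0.05601 CPM in basal TEB, 0.2959 and 0.2467 CPM in luminal duct replicates 1 and 3 and 0, 0.1143 and 0.2312 CPM in luminal TEB. Col28a1 was at 0.01995, 0 and 0.3848 CPM in basal duct, 0, 0.6737 and 0.7001 CPM in basal TEB, 0.8877 and 0 CPM in luminal duct replicates 1 and 3 and 0, 0.01905 and 0.01926 CPM in luminal TEB. Each of these 2 genes had 114 counts or fewer in all. Col8a2 peaked at 7.16 CPM and Col6a5 at 0.969 CPM. In all, 6 of the 44 genes had a group mean below 1 CPM in every group and 23 had one of at least 50 CPM in some group.

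Genes of the machinery that makes collagen were also tested. Of 34 genes for hydroxylases, glycosyltransferases, chaperones, proteinases and cross-linking enzymes of collagen, 33 were tested, and 19 were called higher and 1 lower in basal cells of ducts, and 16 higher and 1 lower in those of TEBs, where 12.6% and 9.71% of all genes were called higher and lower in ducts and 13.2% and 11.8% in TEBs. None was called between TEBs and ducts in either cell type. Serpinh1, the chaperone of the collagen triple helix, was at 715.3 to 1228 CPM in basal and 29.0 to 68.6 CPM in luminal libraries. Also called in both ducts and TEBs were Sparc, a collagen-binding matrix protein, at 890 to 1565 CPM in basal and 1.502 to 17.64 CPM in luminal libraries, P3h1, a prolyl 3-hydroxylase, at 53.3 to 111.1 against 0 to 2.49 CPM, Loxl3, a lysyl oxidase that cross-links collagen, at 103.1 to 147.4 against 0.0228 to 4.77 CPM, and Tll1, a procollagen proteinase, at 2.29 to 24.5 CPM against 0 in all luminal libraries. P4ha2, a prolyl 4-hydroxylase, was the gene called lower in basal cells of ducts, at 1.55 to 6.78 CPM against 136.5 and 10.57 CPM in luminal duct replicates 1 and 3. Like Col6a3, it was highest in replicate 1. In TEBs the gene called lower in basal cells was Adamts3, a procollagen N-proteinase, at 9.21 to 17.3 CPM in basal against 47.5 to 61.4 CPM in luminal TEB.

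Several collagen receptors were called as well. Of 10 genes, 8 were tested, and 5 were called higher in basal cells of ducts, 3 in those of TEBs and none between TEBs and ducts. The shares of all genes called were 12.6% and 13.2% higher in basal cells of ducts and TEBs, and 1.32% and 1.41% between TEBs and ducts of basal and luminal cells. Itgb1, the common beta chain of the collagen-binding integrins, was at 952.4 to 1126 CPM in basal and 287.8 to 427.3 CPM in luminal libraries. Itga2, an alpha chain that pairs with it, was at 36.1 to 176.9 CPM against 9.92 to 13.9 CPM. Itga1, the alpha chain known for binding collagen IV, was at 34.4 to 41.4 CPM in basal duct, 2.14 to 15.5 CPM in basal TEB and at most 1.18 CPM in luminal libraries. Ddr1, the receptor tyrosine kinase for collagen in epithelia, was at 235.1 to 354.2 CPM in basal duct against 137 and 103.6 CPM in luminal duct replicates 1 and 3. It was called there. In TEBs it was at 254.7 to 262.3 CPM in basal and 208.4 to 230 CPM in luminal cells and was not called.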

How the data were processed

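RNA-seq was measured in 11 libraries of 4 groups. The authors sequenced 80 bp paired reads of polyA RNA (an unstranded kit), aligned them to mm10 with Rsubread and counted them per gene with featureCounts (its version is not given in the sources used here), and the deposited table holds these raw counts per Entrez gene with gene lengths. All columns of per-sample values were used (0 left out). Symbols were found for 25275 of 27179 identifiers.

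The counts were analysed in R 4.3.3 with edgeR 4.0.16. The filterByExpr function, set to a count of at least 10 and a total of at least 15, kept 17370 genes and at least 99.965% of each library's counts. Libraries were scaled by TMM, and 1 quasi-likelihood model with the 4 groups gave all contrasts, with Benjamini-Hochberg adjustment over all genes tested and a threshold of 0.05. The common biological coefficient of variation was 0.704. Standard errors were taken from the F statistic, as |log2 fold change|/sqrt(F). CPM follow TMM scaling, and FPKM divide them by the deposited length. A count of 0 allows up to 3 counts, and this limit covers counting error only. The scripts were tested on simulated data.

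Alternatives used limma 3.58.1, DESeq2 1.42.0, other scalings, filters and thresholds, a replicate block, and fits without single libraries. Values of each library are given for collagen IV, for fibrillar genes past the filter, and for other members that were called between TEBs and ducts, were among the 5 largest changes in either direction between cell types or had a group mean of at least 50 CPM, and elsewhere mostly ranges. Of the genes that make or bind collagen, those with the 3 largest changes in either direction were to be named, and those of them that were not called are left out, while Serpinh1, Ddr1, Itgb1 and Itga2 were in part chosen after their values were seen. The members and all lists were chosen with earlier results of these data known. Without strand, reads of overlapping genes cannot be told apart, and 13 collagen genes share exon bases with another gene, of which 2, Col4a3 and Col9a3, share more than 5%.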

Additional observations from a re-analysis of the deposited data

Results flagged for a closer look

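The TEB-duct difference of Col4a6 differed between basal and luminal cells, by -1.68 on the log2 scale (SE 0.31, FDR 0.0383, edgeR's interaction test), with values below those of ducts in 3 of 3 basal TEB libraries and above them in 3 of 3 luminal TEB libraries. The call was lost in 10 of 23 alternatives, among them library totals in place of TMM (FDR 0.0591) and the replicate block (FDR 0.0935). Its luminal side rests on 2 duct libraries that differed in their collagens. No group here has 4 or more libraries, so no library was tested as standing apart from its group.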

How the results depend on the processing

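Of 66 results on single genes, 43 kept their direction and side of the threshold under all alternatives run, at most 24 each, and 11 lost a call under some. For Col4a1 between TEBs and ducts in luminal cells the direction turned, to 0.21 without luminal duct replicate 3 and 0.23 without that library and basal TEB replicate 1, and none of its values passed the test. With 1 library left out its values lay between -1.09 and 0.21. The counts between basal and luminal cells stayed within 1.5 times the reported ones. Of the counts between TEBs and ducts, that in basal cells (2) became 0 with library totals, 8 with limma voom, 4 with only the groups compared, 0 at an FDR of 0.01 and 4 without basal TEB replicate 1 and luminal duct replicate 3, and lay between 0 and 3 with 1 library left out. That in luminal cells (1) became 0 with library totals, 2 with no expression filter, 6 with the likelihood ratio test, 7 with DESeq2, 0 with only the groups compared, 0 at an FDR of 0.01 and 4 without those 2 libraries, and lay between 0 and 12 with 1 library left out. The interaction (1) became 0 with library totals, 2 with no filter, 4 with the likelihood ratio test, 6 with DESeq2, 0 at an FDR of 0.01 and 4 without those 2 libraries, and lay between 0 and 8 with 1 library left out. The cause was not tested. For most of these settings the share of all genes called was not counted, so the counts do not show a change particular to collagens. Library totals in place of TMM moved the median of all genes in luminal cells from 0.04 to 0.42 and that of the interaction from -0.13 to -0.63.

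Replicate numbers do not show which libraries share mice. Of 15 pairs of libraries with the same number 4 had deviations from their group means that correlated above 0.1 (range -0.068 to 0.163). The median was 0.069 for these pairs and -0.0265 for pairs with different numbers. With 2 or 3 libraries in a group these correlations cannot settle whether the numbers pair the libraries. With the replicate block the count in luminal cells was 0 and that of the interaction 0, with an FDR of 0.0624 for Col14a1 and 0.0935 for Col4a6. A group of 2 or 3 libraries limits what these tests can detect, and the levels below 1 CPM rest on few counts.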
